A study of Mus musculus with 6 samples.

Results

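The miR-29 family of microRNAs (miRNAs, short RNAs that lower the output of matching messenger RNAs) was followed in 2 fat depots of the mouse. Its members were taken by name as the guide arms miR-29a-3p, miR-29b-3p and miR-29c-3p, which made 3 of the 1251 miRNA arms in the deposited table. All 3 were among the 269 arms abundant enough to be tested, but miR-29b-3p was so through subcutaneous fat alone, so that a difference was built into its inclusion. Brown fat, which burns fuel to make heat, came from between the shoulder blades (interscapular) and gave 3 libraries (BAT_EPA, numbered 3, 4 and 5 by the labels). Subcutaneous fat, a white storage depot, came from the groin (inguinal) and gave 3 more (SAT_EPA, numbered 1, 3 and 8). All came from C57BL/6J mice, an inbred laboratory strain, whose feeding began at an age of 5 to 6 weeks and lasted 11 weeks. Both groups ate a high fat diet in which fat gave 45%, protein 20% and carbohydrate 35% of the energy, and to which EPA (eicosapentaenoic acid, an omega-3 fatty acid of fish oil) was added at 6.75%. All mice were fasted for 4 hours. The study asks what EPA does to adipose miRNAs, and between the groups used here only the depot differs. The labels do not say whether the depots of one mouse were sampled together. The p-values rest on the spread between libraries of a depot, some of which may be technical.

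MiR-29 is known above all as a brake on extracellular matrix. Its members repress messenger RNAs of fibrillar collagens, elastin and fibrillin, and the fibrosis signal TGF-beta lowers their transcription in many cell types. In cultured adipocytes, raised miR-29 has been linked to weaker insulin-stimulated glucose uptake. A miRNA finds its targets mainly through its seed, bases 2 to 8 from the 5′ end.

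The mature sequences are shown because the members share a seed and differ by few bases elsewhere. They are given 5′ to 3′ as RefSeq lists them on GRCm38, the assembly also called mm10, with the seed in capitals.
miR-29a-3p: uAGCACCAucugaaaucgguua
miR-29b-3p: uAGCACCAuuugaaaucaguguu
miR-29c-3p: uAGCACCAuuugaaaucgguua

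Of 1674 distinct mouse mature sequences in the RefSeq table, 3 had the seed AGCACCA, and these were the 3 members. Counted from 1 at the 5′ end, miR-29a-3p and miR-29c-3p differed at 1 of 22 positions (C10U, the base of miR-29a-3p first). MiR-29b-3p, with 23 bases, differed from miR-29a-3p at 4 of the 22 shared positions (C10U, G18A, U21G and A22U). The sources used here do not say how reads with a mismatch were assigned, and a read of miR-29a-3p with a wrong base at position 10 could be read as miR-29c-3p. The 3′ end of miR-29b-3p holds the hexamer AGUGUU, known as a nuclear import element of this miRNA. The hexamer, searched on the RNA strand, was present in 0.717% of the 1674 sequences and absent from the other two members.

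The family is encoded at 2 loci, each with a pair of hairpins. MiR-29a-3p comes from Mir29a (chr6:31062660-31062747, minus strand), and miR-29c-3p from Mir29c (chr1:195037547-195037634, plus strand). MiR-29b-3p comes from both loci, from Mir29b-1 (chr6:31063023-31063093, minus strand), 275 bases from Mir29a, and from Mir29b-2 (chr1:195037040-195037120, plus strand), 426 bases from Mir29c. In GENCODE M21 both chromosome 1 hairpins lie in an exon of the noncoding host transcript A330023F24Rik (195033823 to 195037904), and on the opposite strand from an exon and UTR of Cd46, a complement regulator. Mir29a overlapped no other annotated gene, and Mir29b-1 only the end of an exon of the long noncoding RNA Gm27019 (31063092 to 31063495). The chromosome 6 hairpins are shown as they carry the arm that made up most of the family, with the guide arm in capitals and the other arm upstream of it in lower case.
Mir29a: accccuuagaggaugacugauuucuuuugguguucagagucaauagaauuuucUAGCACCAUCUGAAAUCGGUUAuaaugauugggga
Mir29b-1: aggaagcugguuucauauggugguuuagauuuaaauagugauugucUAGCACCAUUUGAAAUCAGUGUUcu

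In the values as deposited, brown fat held less of all 3 guide arms than subcutaneous fat, and nearly all of the family in either depot was miR-29a-3p. All 3 were called lower in brown fat, where 35.7% of all tested arms were called lower, 33.5% higher and 69.1% in either direction (limma, adjusted p under 0.05). With each library's trend over the GC content of the arms removed, none of the 3 was called lower and miR-29a-3p turned to higher in brown fat, as given with the member values. For all 3 the depots did not overlap, which held in this direction for 40.1% of tested arms. With those shares, and with miR-29b-3p tested because of its subcutaneous level, the count of 3 says little about the family as such. Since the tissue is bulk, fewer cells of a type and less RNA per cell cannot be told apart. Levels are normalized log2 abundances as deposited, with a floor at 3.32 (10 on the linear scale). They do not show how many reads lie behind a value. Levels are set side by side between members with a limit. Small RNA libraries favour some sequences over others, and the deposited values act nearly as ranks.

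MiR-29a-3p, the abundant member, stood at 12.81, 13.09 and 13.40 in brown libraries 3, 4 and 5, and at 13.94, 13.84 and 14.11 in subcutaneous libraries 1, 3 and 8. The depots did not overlap, but the gap of 0.44 between the highest brown and the lowest subcutaneous library was smaller than the range of 0.59 within brown fat. By level it ranked 35th to 41st of all arms in the brown libraries and 25th to 29th in the subcutaneous ones. The log2 difference, brown minus subcutaneous, was -0.87 ± 0.18 (SE of the fit, n = 3 per depot, limma adjusted p = 0.0058), or 1.82-fold higher in subcutaneous fat. This was a modest difference for these data, the 119th lowest of the 269. Under median-of-ratios scaling it missed the threshold (-0.45, limma adjusted p = 0.0627). That scaling moved the median difference of all tested arms from -0.45 to -0.09. With the GC trend of each library removed, the miR-29a-3p difference reversed to 0.53 (limma adjusted p = 0.0382), and with that trend fitted over a stricter filter to 0.68 (0.0168). Relative to the median of all tested arms, miR-29a-3p differed by -0.41 as deposited and -0.36 after median-of-ratios scaling. With the GC trend removed, it lay 0.80 above the median of the arms with a RefSeq sequence.

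MiR-29c-3p, the chromosome 1 member, stood at 5.49, 3.32 and 5.60 in brown libraries 3, 4 and 5, with library 4 at the floor, and at 7.68, 8.39 and 8.73 in subcutaneous libraries 1, 3 and 8. Every subcutaneous library was above every brown one, by at least 2.08. The log2 difference was -3.46 ± 0.69 (SE, n = 3 per depot, limma adjusted p = 0.0047), the 20th lowest of the 269. Its size leans on the floored library, and without brown library 4 it was -2.72 (limma adjusted p = 0.0035). It also moved with the treatment of the floor, to -2.28 with 40 added to the linear values and to -4.73 with the floor subtracted and 1 added. Brown library 4 was also the brown library highest in the skeletal muscle miRNA miR-133a-3p, at 17.20 against 10.32 and 12.50 in the other two. In subcutaneous fat, library 3 stood highest in miR-133a-3p, at 16.90 against 10.74 and 13.32. Without both of these libraries the miR-29c-3p difference was -2.66 (limma adjusted p = 0.012), that of miR-29a-3p -0.92 (0.0428) and that of miR-29b-3p -3.18 (0.0051). Removal of the GC trend left miR-29c-3p at -1.48 and not called (limma adjusted p = 0.109).

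MiR-29b-3p, encoded at both loci, was listed at the floor in all 3 brown libraries. In subcutaneous libraries 1, 3 and 8 it stood at 6.34, 5.76 and 6.66, with a mean of 6.25 ± 0.46 (SD, n = 3). No fold is given against a group at the floor. The fitted difference was -2.93 ± 0.46 (SE, n = 3 per depot, limma adjusted p = 0.0018). As brown fat adds no spread, this SE and p can be too small, and the size depends on how the floor is treated, being -1.23 with 40 added to the linear values and -6.06 with the floor subtracted and 1 added. With the GC trend removed it was -0.74 and not called (limma adjusted p = 0.235).

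**Figure D1:**
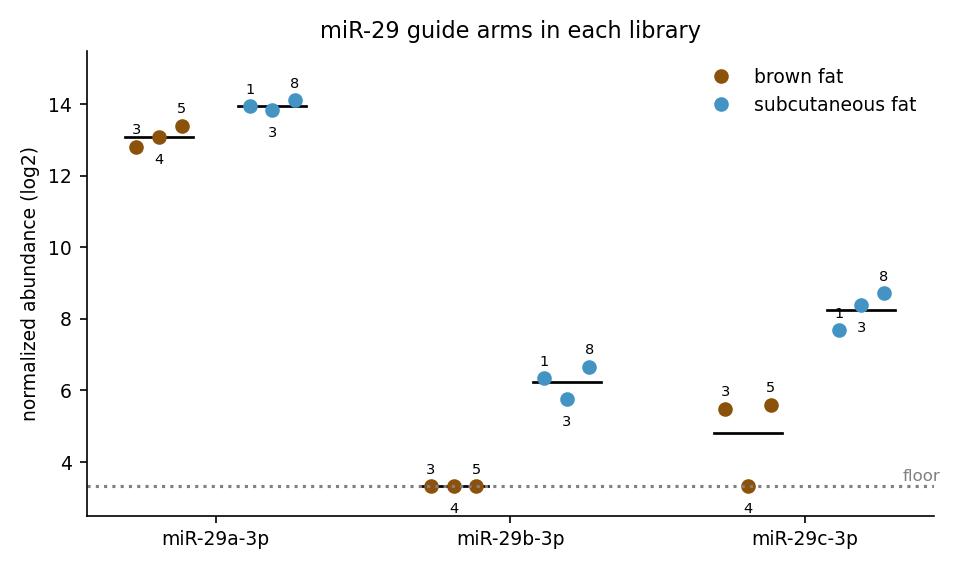
Normalized log2 abundance of the 3 miR-29 guide arms (vertical axis) in each library, with the library number beside each point, brown fat in brown and subcutaneous fat in blue. Horizontal bars are means over 3 libraries and the dotted line is the floor of the table at 3.32. No member's depots overlap, miR-29a-3p lies far above the other members, and 4 brown points lie at the floor.

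Summed on the linear scale after subtraction of the floor, the family came to 7205, 8684 and 10847 units in brown libraries 3, 4 and 5. In subcutaneous libraries 1, 3 and 8 it came to 16002, 15009 and 18194 units. The lowest subcutaneous sum was above the highest brown one. The means were 8912 ± 1832 and 16402 ± 1630 (SD, n = 3 each), a ratio of 1.84, with no test since the sum is a score over chosen members. The log2 difference of the sum, -0.90 as deposited, was -0.48 under median-of-ratios scaling and turned to 0.51, higher in brown fat, with the GC trend removed. The family made up 0.300% to 0.451% of a brown library and 0.624% to 0.757% of a subcutaneous one. Of the 7490 units by which the subcutaneous mean was higher, 95.3% was miR-29a-3p. The family difference by linear sum was therefore close to that of miR-29a-3p, while by the geometric mean of the members, which counts each alike, it was -2.42.

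Among 180 seeds represented by tested arms with a RefSeq sequence, the miR-29 seed ranked 20th to 22nd by summed level in the brown libraries and 12th to 14th in the subcutaneous ones. This placed the family among the upper seeds of both depots.

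In the values as deposited, miR-29c-3p was smaller relative to miR-29a-3p in every brown library than in every subcutaneous one. With 3 libraries per depot, the exact permutation test of such ratios, given below, could not reach 0.05. Taken as a percentage of miR-29a-3p in the same library, after subtraction of the floor, miR-29c-3p came to 0.487%, 0% and 0.355% in brown libraries 3, 4 and 5, and to 1.24%, 2.22% and 2.34% in subcutaneous libraries 1, 3 and 8. The arm found only on chromosome 1 thus made up a larger part of the family in every subcutaneous library. MiR-29b-3p came to 0.451%, 0.301% and 0.515% of miR-29a-3p in subcutaneous libraries 1, 3 and 8. By mean levels, miR-29a-3p was 51.5 times as abundant as miR-29c-3p in subcutaneous fat and 364 times in brown fat. The brown figure counts miR-29c-3p as 0 in library 4, at the floor, and is above the ratio in libraries 3 and 5. In subcutaneous fat miR-29a-3p was 233 times as abundant as miR-29b-3p. A single scaling factor per library leaves such ratios as they are. The deposited values act nearly as ranks, however, and a change made rank by rank need not keep these ratios.

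On the log2 scale the difference miR-29c-3p minus miR-29a-3p averaged -8.30 ± 1.29 (SD, n = 3) over the brown and -5.70 ± 0.49 over the subcutaneous libraries, so that the depots differed by -2.60. Every brown library was below every subcutaneous one, and the two-sided exact permutation test gave p = 0.1, the smallest that 3 against 3 libraries allow (adjusted over the 3 pairs, 0.15). Without brown library 4 the depots differed by -1.86. For miR-29b-3p minus miR-29a-3p the depots differed by -2.06 (exact permutation p = 0.1, adjusted 0.15), with the brown values set by the floor. With the floor subtracted and 1 added that difference was -5.20, and for miR-29c-3p minus miR-29a-3p it was -3.86. MiR-29c-3p minus miR-29b-3p averaged 1.48 ± 1.28 (SD, n = 3) over the brown and 2.01 ± 0.65 over the subcutaneous libraries (exact permutation p = 0.7, adjusted 0.7). The direction of that last difference between depots turned without brown library 4 (0.21) and with the floor subtracted and 1 added (1.33), so no order of the depots can be read for it.

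**Figure D2:**
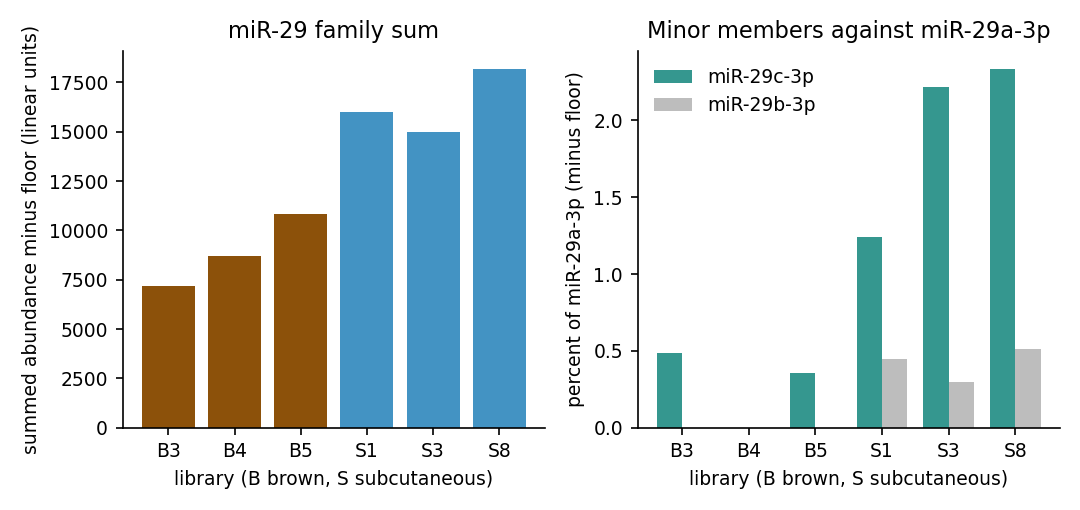
Left, the miR-29 family sum (linear units, floor subtracted) in each library, brown fat (B) in brown and subcutaneous fat (S) in blue. Right, miR-29c-3p and miR-29b-3p as a percentage of miR-29a-3p in the same library. Sums lie at 7205 to 10847 in brown and 15009 to 18194 in subcutaneous fat, and miR-29c-3p stays under 0.5% of miR-29a-3p in brown fat and above 1.2% in subcutaneous fat.

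The other arms of the 4 hairpins, miR-29a-5p, miR-29b-1-5p, miR-29b-2-5p and miR-29c-5p, were each listed at the floor in all 6 libraries. A pair of them would tell the loci of miR-29b apart, since miR-29b-1-5p comes only from chromosome 6 and miR-29b-2-5p only from chromosome 1. With both at the floor, the share of miR-29b-3p from either locus could not be read. Counted with all of miR-29b-3p, the chromosome 6 locus came to 7170 to 10809 units in brown and 14684 to 17781 in subcutaneous libraries. The chromosome 1 locus, counted the same way, came to 0 to 38.4 and 266 to 504 units. In the values as deposited, and whichever locus miR-29b-3p is given to, the mature arms of both loci summed lower in every brown library. The chromosome 6 sum is nearly all miR-29a-3p, whose difference reversed to 0.53 with the GC trend removed (limma adjusted p = 0.0382).

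The members are poor in G and C, and GC content moved with the tissue difference across the table. GC content was 40.9% in miR-29a-3p, 36.4% in miR-29c-3p and 34.8% in miR-29b-3p, against a median of 50% over the 229 tested arms with a RefSeq sequence. Across those 229 arms, the difference between depots rose with GC content (Pearson's r = 0.52, Spearman's rho = 0.50; arms share libraries and are not independent replicates). Within libraries, log2 level changed by 0.017 to 0.026 per percentage point of GC in brown fat and by -0.12 to -0.09 in subcutaneous fat. Of the 37 other tested arms with a GC content in the members' range, 26 were called lower and 1 higher in brown fat, with a median difference of -2.07. Of the 181 arms above that range, 49 were called lower and 69 higher.

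A straight line through all 229 arms lay at -1.52 for the GC content of miR-29a-3p, below its measured -0.87. At the GC content of miR-29b-3p the line lay at -2.32, and at that of miR-29c-3p at -2.11, so that these 2 members fell under the line. With each library's GC trend removed, the difference was 0.53 ± 0.18 (SE, n = 3 per depot) for miR-29a-3p, -1.48 ± 0.71 for miR-29c-3p and -0.74 ± 0.50 for miR-29b-3p, with the limma adjusted p-values given above. None of the 3 was then called lower, where 36.2% of the 229 arms were. Whether the GC trend comes from the libraries or from the tissues was not tested, and GC trend and depot cannot be told apart in these libraries. The ratio of miR-29c-3p to miR-29a-3p was not computed with the GC trend removed. These arms differ in GC content by a single base, for which the line lay at -2.11 and -1.52, so the ratio is not free of the trend.

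**Figure D3:**
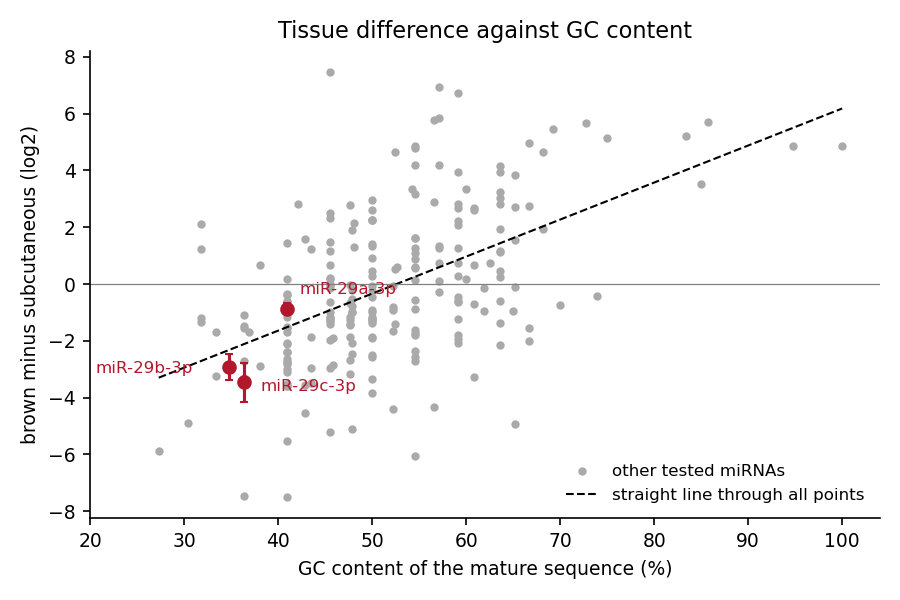
Difference between depots (brown minus subcutaneous, log2) against the GC content of the mature sequence for 229 tested arms, with the miR-29 members in red (bars, SE of the fit) and a straight line through all points. The members lie at the low end of GC content, miR-29a-3p above the line and miR-29b-3p and miR-29c-3p below it.

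**Figure D4:**
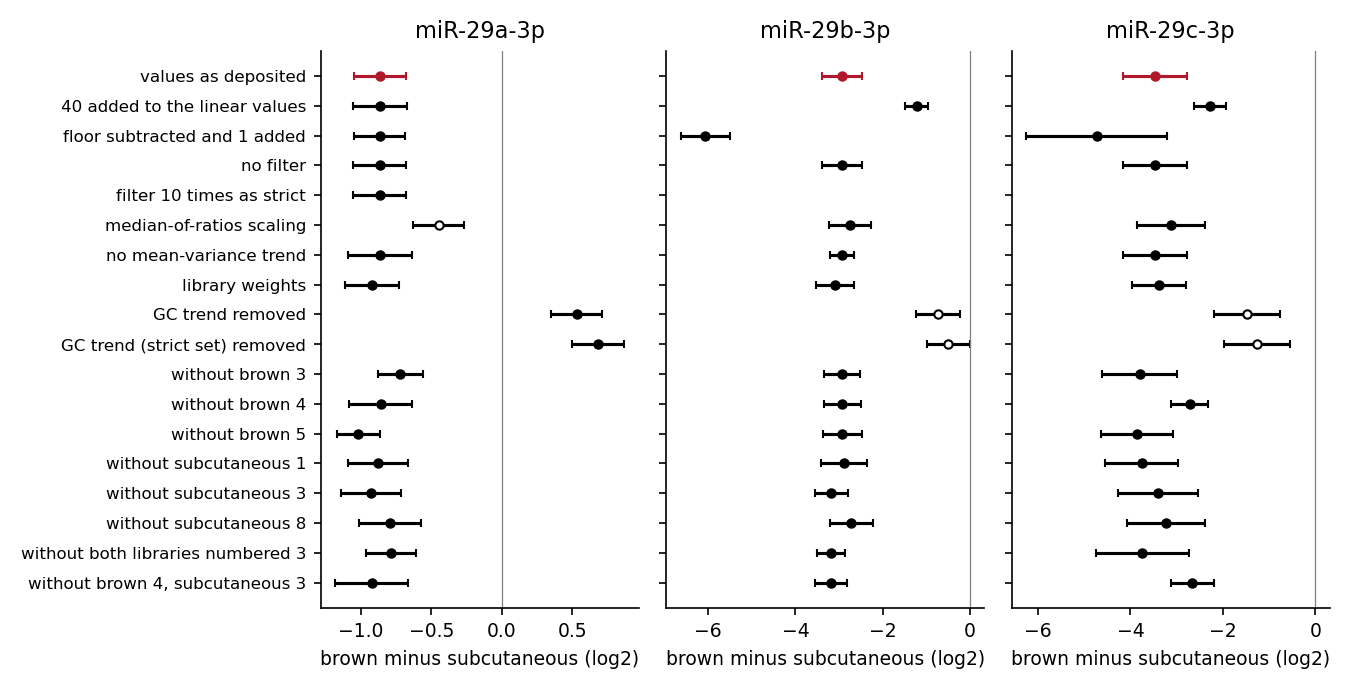
Difference between depots (log2, horizontal axis) for each member under each way of processing, with bars for the SE of the fit; filled points have a limma adjusted p under 0.05 and red marks the values as deposited. The member miR-29a-3p crosses 0 where the GC trend is removed, and miR-29b-3p and miR-29c-3p have no point under the stricter filter, which left them out.

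The tested arms next to each member by mean level show how members of like abundance behaved. MiR-29a-3p lay between let-7f-5p, lower in brown fat (-1.19 ± 0.25 SE, n = 3 per depot, limma adjusted p = 0.0054), and let-7d-3p, higher there (1.43 ± 0.21, 0.0014). Next to miR-29c-3p were miR-146a-5p, an immune regulator (-3.10 ± 0.94), and miR-433-3p of the imprinted chromosome 12 region (4.80 ± 0.67). Next to miR-29b-3p were miR-3061-3p (2.97 ± 0.43) and miR-872-5p (-2.89 ± 0.51). At the levels of all 3 members, then, neighbouring arms were called in both directions. But miR-3061-3p was at the floor in all 3 subcutaneous libraries and miR-872-5p in all 3 brown ones. Each was tested only through the depot where it is high, so a difference was built into its inclusion. MiR-433-3p was at the floor in 2 of 3 subcutaneous libraries.

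Likeness of pattern was measured as the root mean square difference of log2 values over the 6 libraries, each arm centred on its own mean. Closest to miR-29a-3p were miR-181a-5p (0.16), miR-15b-5p (0.19) and miR-186-5p (0.19). MiR-181a-5p stood at 16.18, 16.51 and 16.38 in brown and at 17.20, 17.20 and 17.58 in subcutaneous fat. Closest to miR-29b-3p were miR-872-5p (0.14), miR-26b-5p (0.22) and miR-10b-5p, a Hox cluster miRNA (0.25). Closest to miR-29c-3p were miR-21a-5p, a miRNA linked to fibrosis (0.54), miR-193a-3p (0.61) and miR-34c-5p (0.67). Both miR-29b-3p and miR-872-5p were at the floor in all 3 brown libraries, so part of their closeness was fixed by the floor. In brown fat miR-34c-5p was at the floor in 2 of 3 libraries. With 6 libraries in 2 depots, closeness of pattern is largely a like difference between depots.

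Lists of other miRNAs reported to restrain or promote fibrosis were set beside the family. Of 20 listed restraining arms, 15 were tested, of which 6 were called lower and 2 higher in brown fat and 7 were not called. The share lower was near the 35.7% of all tested arms, and the share higher was below their 33.5%. The median difference was -1.16 against -0.45 over all tested arms. With the GC trend removed, 4 of 12 arms with a sequence were lower and 3 higher. Over all arms then, 36.2% were lower, and 65 of 229 were higher. The most abundant were miR-30d-5p, which targets the fibrosis mediator CTGF with its family, and miR-26a-5p. MiR-30d-5p stood at 16.90, 16.38 and 16.90 in brown and at 15.56, 15.70 and 15.70 in subcutaneous fat, higher in brown fat by 1.08 ± 0.17 (SE, n = 3 per depot, limma adjusted p = 0.0018). MiR-26a-5p stood at 14.41, 14.88 and 15.02 against 17.58, 16.72 and 17.20, lower in brown fat (-2.40 ± 0.27, limma adjusted p = 0.00037). The arms of this list thus went both ways.

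Of 10 listed promoting arms, 9 were tested, of which 6 were called lower and 1 higher in brown fat, where 35.7% of all tested arms were lower and 33.5% higher. The median difference was -1.26. With the GC trend removed, 3 of 6 arms with a sequence were lower and 1 higher. Over all arms then, 36.2% were lower, and 65 of 229 were higher. The most abundant were miR-143-3p (-2.07 ± 0.11 SE, n = 3 per depot, limma adjusted p = 2.6e-05) and miR-145a-5p (-1.26 ± 0.30, 0.0089), both abundant in smooth muscle and fibroblasts. Of the promoting arms, 5 are also on the stromal marker list, and of the restraining arms, 5 are on the epithelial and 2 on the muscle list.

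Marker miRNAs of the cell types in a fat depot also differed between the libraries, and their counts are to be read against the 35.7% of all tested arms called lower and the 33.5% called higher in brown fat. The brown libraries carried the markers of their label, with 4 of 4 tested brown adipocyte arms higher there and a summed level of 459017 to 473472 units against 40651 to 50042 (miR-455-5p of this list was at the floor throughout). Stromal arms were lower in brown fat in 5 of 6 cases, with sums of 25527 to 30825 units in brown and 90829 to 114189 in subcutaneous fat. Both endothelial arms in the table were lower (3224 to 3803 units against 9901 to 12592). Of 4 tested leukocyte arms 3 were lower and 1 higher, with sums of 33362 to 45420 against 15051 to 20196, and miR-142-3p and miR-155-5p at the floor in all libraries. Of 2 tested red cell arms 1 was lower and 1 higher (209716 to 210003 units against 19492 to 36269), with miR-144-3p at the floor throughout.

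Of 3 tested skeletal muscle arms none was called by limma at an adjusted p of 0.05, but their sums ran from 1264 to 151209 units in brown and from 1697 to 123084 in subcutaneous libraries, with miR-1a-3p at the floor throughout. Of 5 tested epithelial arms none was called, with sums of 267 to 387 units in brown and 299 to 39511 in subcutaneous fat, the highest in library 1, where miR-205-5p stood at 15.02. Without subcutaneous library 1 the member differences were -0.88, -2.89 and -3.75 for miR-29a-3p, miR-29b-3p and miR-29c-3p. The liver miRNA miR-122-5p was at the floor in subcutaneous fat and at 38.5 to 996 units in brown fat. The part of stromal, endothelial or other cells in the miR-29 differences was not tested.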

How the data were processed

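Small RNA libraries of 6 samples were analysed. Per the labels' protocols, mice were fasted for 4 hours and libraries of total RNA followed Illumina's small RNA kit. By the series' design text the authors mapped reads to mm10 (also named in the submitters' processing notes), scaled counts to total usable reads and added 40 counts. The sources used here name no aligner or miRNA annotation. The authors deposited log2 values for 1251 arms. The lowest value is 10 on the linear scale, so an addition of 40 does not show. At this floor lay 910 arms in all libraries, and 235 to 273 were above it per library. At 64 of the top 100 ranks all libraries held the same value (tolerance 1e-06), so values act nearly as ranks. From them no depth of a single library and no counting interval can be had.

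Arms were tested if their mean, floor subtracted, reached 0.001% of the mean library total (24.05 units). The log2 values were fitted by limma 3.58.1 (R 4.3.3) with trend, adjusted by Benjamini-Hochberg over 269 arms at 0.05; the script was tested on simulated data. Ratios within libraries used scipy 1.17.1's exact permutation test. Alternatives covered pseudocounts, filters, scaling, variance models, left-out libraries and removal of each library's linear GC trend (sequences matched for 85.1% of tested arms). Chosen after seeing the data were a GC trend fitted over the stricter filter, leaving out the miR-133a-3p-rich library of each depot, the family sum without GC trend, and list counts under alternatives. Named were the members, other arms of their hairpins, the 3 arms most alike in pattern, neighbours by level and the 2 most abundant arms of each list; further marker arms were named after their values were seen. The members and lists were chosen with earlier results of these data known.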

Additional observations from a re-analysis of the deposited data

How the results depend on the processing

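With the GC trend removed, the miR-29a-3p difference reversed to 0.53 (limma adjusted p = 0.0382), and the calls of miR-29b-3p (-0.74, 0.235) and miR-29c-3p (-1.48, 0.109) were lost. With the trend fitted over the stricter filter the values were 0.68 (0.0168), -0.50 (0.396) and -1.26 (0.163). The family sum was 0.51 without the GC trend, -0.48 with median-of-ratios scaling and -2.42 as a geometric mean, against -0.90. Median-of-ratios scaling also ended the miR-29a-3p call (-0.45, 0.0627). The cause of these changes was not tested. Over the other alternatives, including each left-out library, all 3 members kept their direction and call, except that the filter 10 times as strict left out miR-29b-3p and miR-29c-3p; it gave 58 arms higher, of 157 tested, against 90 of 269. Leaving out each library gave -1.02 to -0.72 for miR-29a-3p, -3.18 to -2.73 for miR-29b-3p and -3.86 to -2.72 for miR-29c-3p. With the floor subtracted and 1 added, miR-29b-3p minus miR-29a-3p moved from -2.06 to -5.20. MiR-29c-3p minus miR-29b-3p reversed under the same change (1.33), and ran from -0.93 to 0.21 with each library left out, positive (0.21) without BAT_EPA 4. Of 6 promoting arms with a sequence, 3 were lower without the GC trend, where 83 of all 229 arms were. With the trend of the stricter filter, 2 of 6 were lower, where 81 of 229 were. Of 9 promoting arms, 2 were higher with library weights, where 95 of all 269 arms were. With the miR-133a-3p-rich library of each depot left out, 2 of 9 were higher, where 83 of 267 were. Without both libraries numbered 3, 0 of 9 were higher, where 76 of 269 were. With each library left out, 1 to 2 of 9 were higher, where 75 to 91 of all arms were (2 without BAT_EPA 4, against 82 of 268). No paired analysis was possible because the labels do not say which libraries, if any, come from one mouse. The depots share only the library number 3. Values near the floor limit miR-29b-3p and miR-29c-3p in brown fat, and the depth of each library is unknown.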
